A study of Homo sapiens with 11 samples.

Results

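The effect of tumour necrosis factor (TNF) on each gene was compared between cells that had also received apigenin and cells that had not, to find the genes at which the agents did not simply add. For each gene the interaction was the log2 value with TNF plus apigenin minus that with apigenin, less the log2 value with TNF minus that of control, from group means after quantile normalization. An interaction of 0 means that the fold changes of the single agents multiply. A positive interaction means that the value with both agents lay above that product, and a negative one that it lay below. All 22395 genes matched to a probe set of a single symbol entered. Every group mean of 13241 of them reached 2.53, the median over probe sets, and 9154 had a group mean below it and were kept apart. Genes kept apart lie near the lower end of the scale in at least 1 group, so they are given as log2 values with no fold. Of all these genes, 15832 had at least 2 arrays at or above the median and were tested, 2591 of them kept apart.

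The cells were MDA-MB-468, an established line of human breast cancer cells, first taken from pleural fluid, that lacks oestrogen receptor, progesterone receptor and HER2 amplification. There were 3 control arrays without either agent, 3 arrays of cells given TNF at 40 ng/ml, 2 of cells given apigenin at 40 µM and 3 of cells given both at those doses, all for 24 h. Every group was grown in the same serum-supplemented medium, the agents were prepared in buffered saline, and total RNA was hybridised to GeneChip Human Gene 2.1 ST arrays. The titles number the arrays as triplicates and do not say that cultures were treated separately, so a p-value here speaks only of how these arrays vary, a variation that may be technical.

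TNF binds its receptor on the cell surface and activates the IkB kinases, which free the transcription factor NF-kB to enter the nucleus. There it switches on chemokines, adhesion molecules, complement genes and its own inhibitors, among them IkB-alpha and A20. Apigenin is a plant flavone that inhibits several protein kinases and binds the aryl hydrocarbon receptor, a ligand-activated transcription factor whose best known targets are the cytochrome P450 genes of the CYP1 family.

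Markers of the line were present on all 11 arrays: EGFR lay between 10.65 and 11.11 on the log2 scale, EPCAM between 8.98 and 9.34 and KRT5 between 7.70 and 8.03, while the progesterone receptor gene PGR stayed between 1.35 and 1.62. The oestrogen receptor gene ESR1 lay between 1.85 and 2.71, on both sides of the probe set median. Of the markers of other cells, 7 of 12 for macrophages, 6 of 10 for T and B cells, 5 of 8 for fibroblasts and 4 of 8 for endothelium lay below 2.53 in every group. Among those below were CD163, CD3D, COL1A2 and VWF, while the lymphocyte markers CD8A and CD79A had every group mean at or above 2.53. For scale, 9154 of all 22395 genes had at least 1 group mean below it. That is a looser count than of genes below it in every group, whose share over all genes was not taken. The mean of the macrophage list ranged from 2.69 to 2.94 over the arrays. Array apigenin 1 had the narrowest distribution: the interquartile range of tested genes was 2.40 log2 units on it and 2.63 to 2.90 on the others. Quantile normalization set the distributions equal. On the deposited values, which lack it, the median interaction of all tested genes was 0.23, beside 0.02 after it. Interactions given on the deposited values are to be read against 0.23.

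The interaction passed the test at 7 of the 15832 genes (limma, Benjamini-Hochberg adjusted p under 0.05), which is 0.0442% of those tested. Of these, 5 had every group mean above the median, and CXCL10 and MMP13 were kept apart. At 4 genes the value with both agents was lower than the additive value: CXCL10, MMP13, PRM2 and C3 (0.0253% of genes tested). At 3 genes it was higher: SLC15A2, GBP2 and STAC2 (0.0189%). CXCL10, C3 and MMP13 were raised by TNF and stood lower with both agents than with TNF alone, SLC15A2 and STAC2 were lowered by each agent alone, GBP2 was low with apigenin alone and PRM2 was high with apigenin alone. The smallest interaction that passed was 1.45 in size, and the median 95% interval over all tested genes reached 0.53 to either side. Smaller interactions could mostly not be told from 0 here. Some larger ones did not pass either, such as -2.08 for IL7R (adjusted p = 0.0951). Without the adjustment, 1090 genes had p under 0.05, or 6.88% of those tested, 641 of them higher (4.05%) and 449 lower (2.84%). For scale, the same fit called 186 genes for TNF against control (1.17%), 96 for both agents against apigenin (0.606%), 595 for apigenin against control (3.76%), 510 for both against TNF (3.22%) and 1233 for both against control (7.79%). These calls rested on all 11 arrays: with any of 10 arrays left out, limma called 0 genes, with 902 to 1188 genes at an unadjusted p under 0.05. With apigenin 2 left out it called 23, among them 5 of the 7, with apigenin represented by a lone array assumed to vary like the other groups. Without apigenin 1 the interactions of the 7 genes were -2.21 for CXCL10, -1.59 for MMP13, -1.58 for PRM2, -1.73 for C3, 1.51 for SLC15A2, 1.30 for GBP2 and 1.56 for STAC2. Without apigenin 2 they were -1.89, -1.93, -1.71, -1.47, 1.61, 1.83 and 1.34 in the same order.

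**Figure D1:**
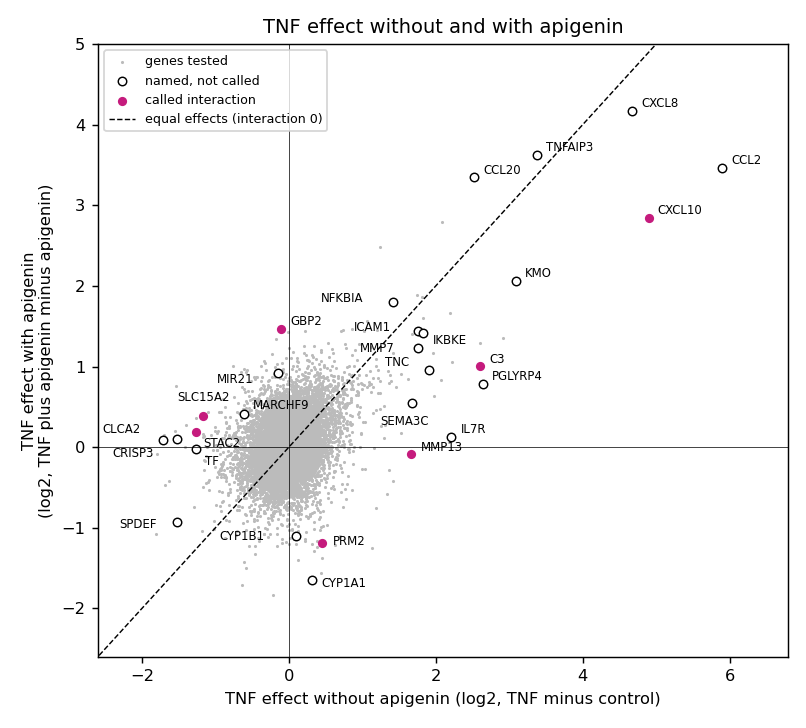
Each point is a gene, with the TNF effect without apigenin on the x axis and with apigenin on the y axis, both as log2 differences of group means. Filled points are the 7 genes whose interaction passed the test, open points are other named genes, and the dashed line marks equal effects; CXCL10, C3 and MMP13 lie below it on the right and SLC15A2, STAC2 and GBP2 above it on the left.

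CXCL10 encodes a chemokine that attracts T cells and natural killer cells through the receptor CXCR3. Its promoter is shown beside those of TNFAIP3, the gene of A20, and NFKBIA, the gene of IkB-alpha. All 3 genes rose with TNF in both arms, but only for CXCL10 did the interaction pass the test. Each sequence is the 250 bases before the RefSeq start on GRCh38.p14, read 5′ to 3′ on the gene's strand, and capitals mark matches to the NF-kB letters GGGNNNNNCC on either strand. The windows are chr4:76023498-76023747 on the minus strand for CXCL10, chr6:137867009-137867258 on the plus strand for TNFAIP3 and chr14:35404750-35404999 on the minus strand for NFKBIA.
CXCL10: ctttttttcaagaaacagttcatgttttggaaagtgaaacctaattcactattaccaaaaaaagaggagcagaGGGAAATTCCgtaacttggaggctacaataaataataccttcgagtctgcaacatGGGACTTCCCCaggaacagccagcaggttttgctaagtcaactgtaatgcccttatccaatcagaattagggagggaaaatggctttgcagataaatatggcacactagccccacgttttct
TNFAIP3: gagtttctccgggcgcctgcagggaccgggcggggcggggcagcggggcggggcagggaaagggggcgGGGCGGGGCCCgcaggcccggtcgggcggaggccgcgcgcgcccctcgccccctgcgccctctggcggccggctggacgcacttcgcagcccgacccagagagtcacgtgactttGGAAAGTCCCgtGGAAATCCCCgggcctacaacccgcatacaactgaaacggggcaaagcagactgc
NFKBIA: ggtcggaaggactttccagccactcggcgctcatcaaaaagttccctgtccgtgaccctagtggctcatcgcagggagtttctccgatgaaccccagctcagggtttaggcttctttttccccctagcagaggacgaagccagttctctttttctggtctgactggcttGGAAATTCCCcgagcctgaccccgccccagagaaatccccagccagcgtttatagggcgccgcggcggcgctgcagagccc

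The CXCL10 window held 3 matches, a pair of which overlap in 1 run of capitals. TNFAIP3 held 4, of which a pair overlap in a run of G and C, and NFKBIA held 1. These letters occur in 54.4% of the 35116 promoters searched, so a match is a description of the sequence and not a binding site. The CXCL10 window also held a match to the interferon response letters, GAAA and GAAA parted by any 2 bases, on either strand, which 3.02% of the promoters do. Of the 28 genes named here, 21 had a promoter in the RefSeq table, and 3 of the 7 called genes did.

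On the control arrays CXCL10 read 2.64, 2.15 and 2.41, and on the TNF arrays 7.18, 7.42 and 7.29. Apigenin alone gave 2.26 and 2.58, and both agents gave 5.04, 5.28 and 5.47. The arrays with both agents lay above all control and apigenin arrays and below all TNF arrays. TNF raised CXCL10 by 4.90 ± 0.16 (log2, moderated standard error, SE; adjusted p = 5.48e-08) without apigenin and by 2.85 ± 0.18 (adjusted p = 3.97e-05) with it. The interaction was -2.05 (95% interval -2.59 to -1.51, adjusted p = 0.0267). CXCL10 was kept apart, since its control and apigenin means of 2.40 and 2.42 lay below the median. With apigenin alone it lay 0.02 from control (adjusted p = 0.97). Near the lower end of the scale a fall could hardly be seen, so this does not show that apigenin alone had no effect. Whether the lower end of the scale has a part in the interaction of CXCL10 was not tested. Across the alternatives its interaction stayed between -2.21 and -1.89.

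C3, the central component of complement, lay well above the median in every group. It read 4.95, 4.86 and 4.60 in control cells, 7.58, 7.34 and 7.31 with TNF, 4.19 and 4.45 with apigenin, and 5.23, 5.24 and 5.50 with both agents. The arrays with both lay between the TNF arrays and all others, without overlap. TNF raised C3 6.09-fold without apigenin (2.61 ± 0.14, log2, SE, adjusted p = 3.14e-06) and 2.0-fold with it (1.0 ± 0.16, adjusted p = 0.0194). The value with both agents was 3.04-fold below the additive one (interaction -1.60, 95% interval -2.08 to -1.13, adjusted p = 0.0289). On the deposited values, which were not quantile normalized, the interaction was -1.40 with an adjusted p of 0.184, the call was also lost with array medians set equal and with array weights, and without array apigenin 2 it was -1.47 with an adjusted p of 0.063.

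MMP13 encodes collagenase 3, a matrix metalloproteinase that cuts fibrillar collagen. Its arrays read 1.89, 1.62 and 1.62 in control cells and 3.43, 3.52 and 3.18 with TNF. With apigenin they read 1.98 and 1.65, and with both agents 1.66, 1.68 and 1.84. Only the TNF arrays lay above the probe set median, and the other groups overlapped one another. TNF raised it by 1.67 ± 0.14 (log2, SE, adjusted p = 0.00013) without apigenin, and with apigenin the difference was -0.09 ± 0.16 (adjusted p = 0.832). Its fitted interaction was -1.76 (95% interval -2.23 to -1.29, adjusted p = 0.0267). MMP13 passed the filter on low values only through the TNF arrays, and the other 3 groups lay below the median, so the size of this value is not a measured difference between levels above it. Under the filter that needs every group mean at the median it was not tested.

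**Figure D2:**
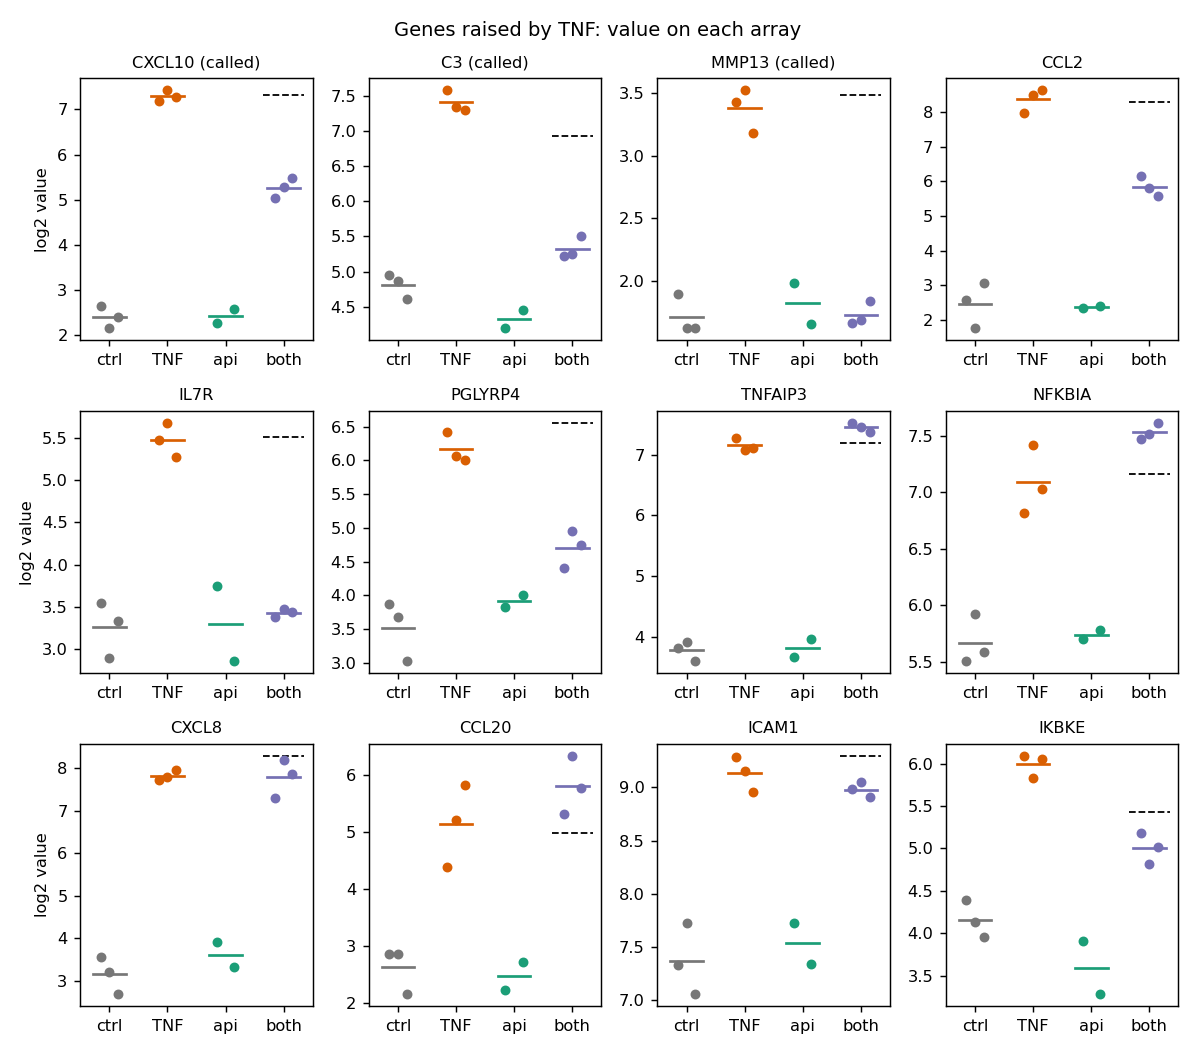
Log2 value on each array for 12 genes raised by TNF, with a bar at each group mean and a dashed line at the additive value (ctrl is control, api is apigenin, both is TNF plus apigenin); axes differ between panels and do not start at 0. For CXCL10, C3 and MMP13 all arrays with both agents lie below the dashed line, while for TNFAIP3 and NFKBIA they lie above it by less than the test could call.

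Genes of the same shape that did not pass the test are given as values. CCL2 encodes the main monocyte-attracting chemokine and was kept apart. It read 2.57, 1.76 and 3.08 in control cells, 7.98, 8.50 and 8.63 with TNF, 2.36 and 2.40 with apigenin, and 6.14, 5.82 and 5.57 with both. The arrays with both agents lay below all TNF arrays and above all others. The TNF effect was 5.90 ± 0.29 without apigenin and 3.47 ± 0.33 with it (log2, SE). Its fitted interaction was -2.43 (SE 0.44, adjusted p = 0.155), resting on control and apigenin means of 2.47 and 2.38 below the median.

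IL7R, the receptor chain for interleukin-7, read 5.47, 5.68 and 5.27 with TNF alone. With both agents it read 3.38, 3.47 and 3.44, inside the range of the control and apigenin arrays from 2.86 to 3.74. Its interaction was -2.08 (95% interval -2.82 to -1.34) with an adjusted p of 0.0951, with -1.64 (adjusted p = 0.206) without array apigenin 1 and -2.53 (adjusted p = 0.015) without apigenin 2. PGLYRP4 encodes a secreted protein that recognises bacterial peptidoglycan. It read 6.42, 6.06 and 6.0 with TNF against 4.40, 4.95 and 4.74 with both, and its interaction was -1.85 (adjusted p = 0.153). SEMA3C, a secreted semaphorin guidance protein, read 7.74, 7.96 and 8.14 with TNF and 6.33, 6.54 and 6.54 with both, with an interaction of -1.14 (adjusted p = 0.118). For PGLYRP4 and SEMA3C, too, no array with both agents reached the TNF arrays. TNF raised IL7R, PGLYRP4 and SEMA3C without apigenin (4.63-fold, 6.23-fold and 3.20-fold), and with apigenin none of the 3 passed the test (adjusted p from 0.122 to 0.851).

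At other TNF-induced genes the interval of the interaction included 0. TNFAIP3 read 7.28, 7.08 and 7.10 with TNF and 7.52, 7.46 and 7.37 with both, against 3.60 to 3.92 in control cells and 3.68 and 3.97 with apigenin. Here the arrays with both agents all lay above the TNF arrays. TNF raised it 10.4-fold without and 12.3-fold with apigenin (adjusted p = 1.59e-07 and 4.93e-07), and the interaction was 0.25 (95% interval -0.18 to 0.69, adjusted p = 0.844), with 0.11 without array apigenin 1 and 0.40 without apigenin 2. NFKBIA rose 2.68-fold and 3.47-fold, with arrays at 6.82, 7.42 and 7.03 under TNF and at 7.47, 7.52 and 7.62 under both. Its interaction was 0.37 (95% interval -0.17 to 0.91), or 0.64 on the deposited values, where the median of all tested genes was 0.23. Neither interval shows that the responses with and without apigenin were equal.

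CXCL8 encodes interleukin-8, which attracts neutrophils. It read 7.72, 7.78 and 7.97 with TNF and 7.30, 8.18 and 7.86 with both agents, so the groups overlapped. TNF raised it 25.5-fold without and 18-fold with apigenin (adjusted p = 3.14e-06 and 6.23e-05), with an interaction of -0.51 (95% interval -1.36 to 0.35, adjusted p = 0.842). Leaving out apigenin 1 gave -0.22 and leaving out apigenin 2 gave -0.79. CCL20, the ligand of the receptor CCR6, was kept apart and read 4.38, 5.22 and 5.84 with TNF against 5.32, 6.34 and 5.78 with both. Its interaction was 0.82 (95% interval -0.36 to 2.01), the widest interval of the named genes. The chemokine genes that TNF raised most therefore had fitted interactions on both sides of 0, from -2.43 for CCL2 to 0.82 for CCL20, and of these only CXCL10 passed the test.

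ICAM1 encodes the adhesion molecule bound by leukocyte integrins. It read 9.29, 9.16 and 8.96 with TNF and 8.98, 9.05 and 8.91 with both, overlapping groups with an interaction of -0.32 (95% interval -0.89 to 0.26), or -0.13 and -0.51 without apigenin 1 and apigenin 2. On the deposited values it was -0.04, beside a median of 0.23 over all tested genes. IKBKE, an IkB kinase-related kinase, read 6.09, 5.83 and 6.06 with TNF and 5.18, 4.82 and 5.02 with both. At IKBKE the groups did not overlap, and the value with both was 1.98-fold below that with TNF (adjusted p = 0.0142). Apigenin alone had a difference of -0.57 from control there (adjusted p = 0.149), the additive value was 5.42 against 5.01 measured, and the interaction was -0.42 (95% interval -1.01 to 0.18, adjusted p = 0.804). It was -0.11 without array apigenin 1 and -0.73 without apigenin 2.

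KMO, TNC and MMP7 also stood lower with both agents than with TNF and had intervals that excluded 0 before adjustment. KMO, an enzyme of tryptophan breakdown, read 7.61, 7.74 and 7.70 with TNF and 5.14, 5.10 and 5.18 with both. Control arrays of KMO spread from 3.73 to 5.08 and the apigenin arrays read 3.48 and 2.67, so that its interaction of -1.03 had an SE of 0.46 and an adjusted p of 0.710. It was -0.62 without array apigenin 1 and -1.44 without apigenin 2. TNC, the matrix glycoprotein tenascin-C, read 6.51, 6.13 and 6.03 with TNF and 4.63, 4.69 and 4.49 with both, with an interaction of -0.95 (adjusted p = 0.506), or -0.65 and -1.24 without apigenin 1 and apigenin 2. MMP7, the metalloproteinase matrilysin, read 7.50, 7.49 and 7.46 against 6.48, 6.65 and 6.68, with an interaction of -0.53 (adjusted p = 0.635), or -0.31 and -0.75 in the same order, and -0.25 on the deposited values. Apigenin against control was -1.52, -0.68 and -0.35 at KMO, TNC and MMP7, beside -2.55, -1.62 and -0.88 for both agents against TNF.

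**Figure D3:**
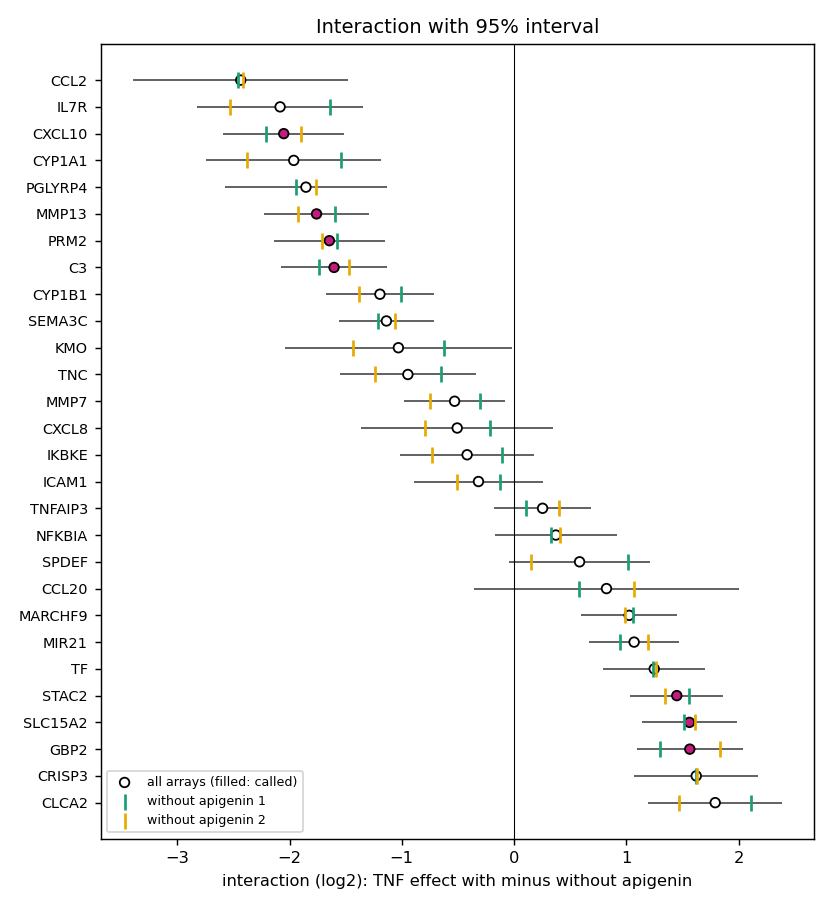
Interaction (log2) of each named gene with its 95% interval from limma, and ticks for the value without array apigenin 1 (green) and without apigenin 2 (yellow). Filled points passed the adjusted test; those of C3, CXCL10 and MMP13 lie at -1.60, -2.05 and -1.76, and the intervals of TNFAIP3, NFKBIA, CXCL8, CCL20, ICAM1, IKBKE and SPDEF cross 0.

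The lists of pathway genes were described by counts, with the median interaction of all tested genes at 0.02. On the deposited values without quantile normalization that median was 0.23, and the values of lists and of single genes there are to be read against it. Of all tested genes 0.0442% were called. At an unadjusted p under 0.05, 4.05% of them were higher and 2.84% lower. Among 11 NF-kB feedback inhibitors 0 were called by limma, 1 had an unadjusted p under 0.05 and the median was 0.21 (0.09 without array apigenin 1 and 0.36 without apigenin 2). That gene was CYLD, a deubiquitinase that restrains IkB kinase signalling. TNF raised it by 1.24 without and by 2.48 with apigenin (adjusted p = 0.0121 and 0.000671). The CYLD interaction was 1.24 (adjusted p = 0.385). Apigenin against control was -1.07 there and both agents against TNF 0.17, so the level with both was close to that with TNF. Of 13 NF-kB subunits and kinases 0 were called and 2 had an unadjusted p under 0.05, both higher. NFKB1, which encodes the p105 and p50 proteins, was one of them. Its TNF effects were 0.77 and 1.23 and its interaction 0.46 (adjusted p = 0.599). For NFKB1 apigenin against control was -0.52, and both agents against TNF -0.07. Of 11 TNF receptor proximal components 0 were called and 0 had an unadjusted p under 0.05, with a median of -0.01.

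Among 14 chemokines 1 was called, CXCL10, beside 0.0442% of all tested genes, and the median was 0.10. The list of 18 adhesion and acute response targets held 1 called gene, C3, and 9 with a lower interaction at an unadjusted p under 0.05 against 1 with a higher one, beside 2.84% and 4.05% of all tested genes. Its median interaction was -0.55 (-0.34 on the deposited values and -0.33 without array apigenin 1), with a median TNF effect of 1.86 without apigenin and 0.67 with it. Several members of that list were put there because earlier results on these arrays had shown them raised by TNF, so its median is not independent evidence. The members with a lower value included acute phase gene SAA1 (interaction -1.34, adjusted p = 0.223), complement factor CFB (-0.79, adjusted p = 0.435), the interleukin-22 binding protein gene IL22RA2 (-1.31, adjusted p = 0.597) and IGFL1 (-1.56, adjusted p = 0.385). TNFAIP2 was the member on the other side, raised by 2.08 without and 2.80 with apigenin (interaction 0.72, adjusted p = 0.659). For TNFAIP2 apigenin against control was -0.72, and both agents against TNF -0.01.

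Over all genes with every group mean above the median, TNF without apigenin raised 122 and lowered 49 (over all tested genes 137, or 0.865%, and 49, or 0.309%). The raised genes had a median TNF effect of 0.95 there and of 0.70 on the separate arrays with apigenin, where 120 of 122 had the same sign and 38 were called again. Picked the other way, the 65 genes that TNF raised in the presence of apigenin (78 of all tested, 0.493%) had a median of 1.09 there and of 0.86 without it, with 62 of the same sign. Either choice gave the smaller median in the arm that had not been used to choose, so the smaller medians are not read as a change. The 49 lowered genes had a median of -0.85 without apigenin and of -0.16 with it, where 32 had the same sign and 2 were called. The 14 genes that TNF lowered with apigenin (18 of all tested, 0.114%) had medians of -0.84 there and -0.24 without it. The counts with apigenin moved with the scaling and the arrays: with array medians set equal TNF raised 166 and lowered 7 of all tested genes there, without apigenin 1 it raised 28 and lowered 2, and without apigenin 2 it raised 126 and lowered 97.

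SLC15A2 had the lowest p-value among the genes with a higher interaction. It encodes a proton-coupled transporter of short peptides. Control arrays read 5.81, 5.63 and 5.94, TNF arrays 4.62, 4.58 and 4.66, apigenin arrays 3.66 and 3.76, and those with both agents 4.30, 4.02 and 3.97. Without overlap, the groups ran from control through TNF and both agents down to apigenin alone. TNF lowered it 2.25-fold (adjusted p = 0.000775) and apigenin 4.24-fold (adjusted p = 0.000186), but with both it stood 2.95-fold above the additive value of 2.54 (interaction 1.56, 95% interval 1.14 to 1.99, adjusted p = 0.0267). That additive value lies next to the probe set median of 2.53, and whether the lower end of the scale has a part in this interaction was not tested. With apigenin present, the TNF difference was 0.39 ± 0.15 (log2, SE, adjusted p = 0.244). On the deposited values the interaction was 1.78 with an adjusted p of 0.0518.

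STAC2 encodes an adaptor protein of voltage-gated calcium channels. Its control arrays read 4.03, 4.22 and 3.94, and all others between 2.68 and 3.15, below every control array. The apigenin arrays overlapped both the TNF arrays and those with both agents. TNF lowered it 2.40-fold (adjusted p = 0.00035) and apigenin 2.31-fold (adjusted p = 0.00221), and with both agents it lay 1.02 below control, no lower than with either. The interaction was 1.45 (95% interval 1.03 to 1.87, adjusted p = 0.0289). The additive value would be 1.59, which is below the probe set median of 2.53, while the measured mean with both was 3.04. A level near the lower end of the scale leaves little room for a further fall, and its part in this interaction was not tested.

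GBP2, an interferon-inducible GTPase, did not respond to TNF in the absence of apigenin as far as these arrays show. It read 5.85, 5.80 and 5.87 in control cells and 5.70, 5.80 and 5.72 with TNF (difference -0.10, adjusted p = 0.853). With apigenin alone it read 3.58 and 4.12, and with both agents 5.39, 5.39 and 5.16. Apigenin alone thus lowered GBP2 3.97-fold (adjusted p = 0.000293), and TNF raised it 2.76-fold in apigenin-treated cells (adjusted p = 0.00197). Its interaction was 1.57 (95% interval 1.10 to 2.04, adjusted p = 0.0289), and the gene's other probe set gave 1.81. Because the apigenin arrays differed by more than those of any other group, the value was 1.30 without apigenin 1 and 1.83 without apigenin 2. Its call was lost on the deposited values (1.75, adjusted p = 0.103) and with array medians set equal.

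**Figure D4:**
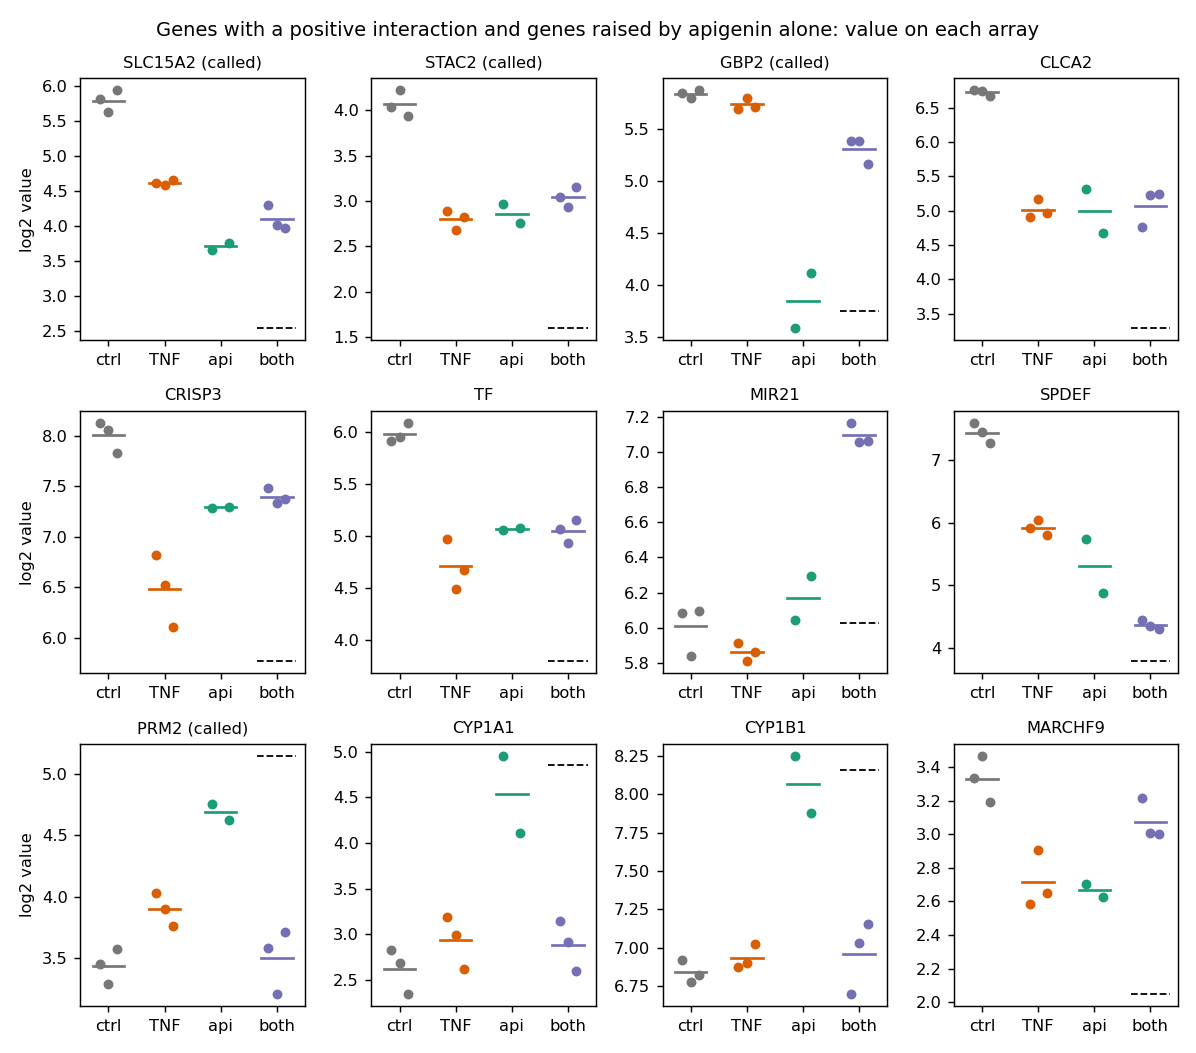
Log2 value on each array for 12 further genes with a positive interaction or a rise with apigenin alone, with a bar at each group mean and a dashed line at the additive value (ctrl is control, api is apigenin, both is TNF plus apigenin); axes differ between panels and do not start at 0. For SLC15A2, STAC2 and GBP2 all arrays with both agents lie above the dashed line, and for PRM2, CYP1A1 and CYP1B1 all lie below it.

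CLCA2 and TF had the shape of STAC2 without passing the test. CLCA2 encodes a chloride channel accessory protein. It read 6.76, 6.75 and 6.68 in control cells, 4.91, 5.17 and 4.97 with TNF, 5.32 and 4.67 with apigenin, and 4.76, 5.22 and 5.24 with both. The treated groups overlapped below control. TNF lowered it 3.27-fold and apigenin 3.33-fold (adjusted p = 0.000585 and 0.00221), and the interaction was 1.79 (95% interval 1.20 to 2.39, adjusted p = 0.0647). On the deposited values it was 2.12 with an adjusted p of 0.018.

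CRISP3, a secreted cysteine-rich protein, fell 2.86-fold with TNF, to 6.82, 6.53 and 6.11 from 8.12, 8.06 and 7.83 in control cells. With both agents it read 7.48, 7.34 and 7.37, close to the 7.29 on each apigenin array and above every TNF array (1.88-fold, adjusted p = 0.0143). Its interaction was 1.62 (adjusted p = 0.0699). Unlike at STAC2, the difference of apigenin alone from control, -0.71, did not pass the test (adjusted p = 0.0614). TF, which encodes the iron carrier transferrin, read 4.97, 4.49 and 4.67 with TNF, 5.05 and 5.08 with apigenin, 5.07, 4.93 and 5.15 with both, and 5.91, 5.95 and 6.08 in control cells. All its treated arrays lay below the control arrays, and the interaction was 1.25 (adjusted p = 0.104). MARCHF9, a membrane-bound ubiquitin ligase, had an interaction of 1.03 (adjusted p = 0.210) with an additive value of 2.05, again below the median.

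MIR21 was higher with both agents than with either or neither. Its probe set reads RNA of the gene and not the mature microRNA. It read 6.09, 5.84 and 6.10 in control cells, 5.92, 5.81 and 5.86 with TNF, 6.05 and 6.29 with apigenin, and 7.16, 7.06 and 7.06 with both. The arrays with both agents lay above all others, which overlapped. TNF raised it 1.90-fold in the presence of apigenin (adjusted p = 0.0108), while neither agent alone passed the test (adjusted p = 0.72 and 0.562), and the interaction was 1.07 (adjusted p = 0.118).

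SPDEF, an ETS transcription factor of secretory epithelium, was lowered by each agent alone and lay lower still with both. It read 7.60, 7.45 and 7.27 in control cells, 5.91, 6.05 and 5.80 with TNF, 5.73 and 4.87 with apigenin, and 4.45, 4.36 and 4.30 with both. Every array with both agents lay below every other array. The value with both was 2.93-fold below that with TNF (adjusted p = 0.00171), and the interaction was 0.58 (95% interval -0.05 to 1.21, adjusted p = 0.741). It was 1.01 without array apigenin 1 and 0.15 without apigenin 2.

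PRM2, CYP1A1 and CYP1B1 rose with apigenin alone and stood at about the control value with both agents. PRM2 encodes a protamine, a protein that packs sperm DNA. It read 3.45, 3.29 and 3.57 in control cells, 4.03, 3.90 and 3.76 with TNF, 4.75 and 4.62 with apigenin, and 3.58, 3.21 and 3.71 with both. Apigenin arrays lay above all others, and the arrays with both agents overlapped control. Apigenin raised it 2.38-fold (adjusted p = 0.00313), and TNF lowered it 2.28-fold in apigenin-treated cells (adjusted p = 0.00945). The value with both was 3.13-fold below the additive one (interaction -1.65, 95% interval -2.14 to -1.15, adjusted p = 0.0289). The call was lost on the deposited values (-1.40, adjusted p = 0.118), with array medians set equal and with array weights.

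CYP1A1 read 2.83, 2.69 and 2.35 in control cells, 3.20, 3.00 and 2.62 with TNF, 4.95 and 4.11 with apigenin, and 3.14, 2.91 and 2.60 with both. Only the apigenin arrays stood apart. Apigenin raised it 3.76-fold (adjusted p = 0.00368) and TNF lowered it 3.13-fold in apigenin-treated cells (adjusted p = 0.0194). The control mean of CYP1A1, 2.62, lay next to the probe set median of 2.53. The size of these folds thus rests in part on values near the lower end of the scale. The interaction of -1.96 (95% interval -2.74 to -1.18) had an adjusted p of 0.155, with -1.54 (adjusted p = 0.358) without array apigenin 1 and -2.38 (adjusted p = 0.034) without apigenin 2. CYP1B1, with arrays at 8.25 and 7.88 under apigenin and between 6.70 and 7.16 in all other groups, had an interaction of -1.19 (adjusted p = 0.173). Both depend on 2 apigenin arrays. The aryl hydrocarbon receptor list of 10 tested genes held AHR and ARNT themselves as well as targets. Of these 10 genes 0 were called by limma, CYP1A1 and CYP1B1 were the 2 with an unadjusted p under 0.05, and the list's median was -0.01.

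The luminal, secretory and mammary list held 1 called gene of 25, STAC2, with 8 at an unadjusted p under 0.05 on the higher side and 1 on the lower (4.05% and 2.84% over all tested genes). Its median interaction was 0.35, and 0.25 and 0.23 without apigenin 1 and apigenin 2. Some members had been placed there because earlier results showed them lowered by TNF or apigenin, so this median, too, is not independent evidence. SCGB2A2, which encodes the secreted protein mammaglobin, had an interaction of 1.61 (adjusted p = 0.215) and fell by 1.53 on the log2 scale with TNF alone. Among 13 basal and squamous genes 0 were called, with 3 higher at an unadjusted p under 0.05. The keratin gene KRT4 gave the highest value there, an interaction of 1.42 (adjusted p = 0.385).

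In the matrix list 1 of 19 genes was called, MMP13, with 5 lower and 0 higher at an unadjusted p under 0.05 (2.84% and 4.05% over all tested genes) and a median of -0.28 (-0.12 on the deposited values). TNC, MMP7, ITGAV and MMP9 were the others, at -0.95, -0.53, -0.51 and -0.47. MMP13 passed the filter on low values only through the TNF arrays, so its call is not evidence for a pattern of the list. Among 39 interferon-stimulated genes 1 was called, GBP2, beside 0.0442% of all tested genes, and the median was 0.14. GBP3, a related GTPase, had TNF effects of 0.33 without and 1.11 with apigenin and an interaction of 0.79 (adjusted p = 0.385). For GBP3 apigenin against control was -1.11, and both agents against TNF -0.32. IFI44L, an interferon-stimulated gene kept apart, lay on the other side at -0.73 (adjusted p = 0.669).

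Of the 30 lists, 25 held no called gene. Among them were the G2/M and mitosis genes, whose median was -0.46 for apigenin against control and -0.39 for both agents against TNF. Of these 43 genes 0 were called by limma and 0 had an unadjusted p under 0.05, with a median interaction of 0.04. The 37 genes of G1/S and replication had a median interaction of 0.13 with 3 higher at an unadjusted p under 0.05. For the 24 genes of the ATF4 and unfolded protein response it was -0.06 with 2 lower. The 16 NRF2 antioxidant genes had 0.07 with 3 higher and 1 lower. Over all tested genes 4.05% were higher and 2.84% lower at that threshold. Replication-dependent histones had a median of 0.45 (0.26 without apigenin 2), beside 0.02 over all tested genes. Of the 10 histone genes 9 lay above 0, and 3 had an unadjusted p under 0.05. H2BC14 was the highest of these at 1.37 (adjusted p = 0.657). The 4 lists of other cell types held 0 calls, and CD14 was the member at an unadjusted p under 0.05 (1.0, adjusted p = 0.498). In bulk RNA, fewer cells of a type and less RNA per cell cannot be told apart.

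**Figure D5:**
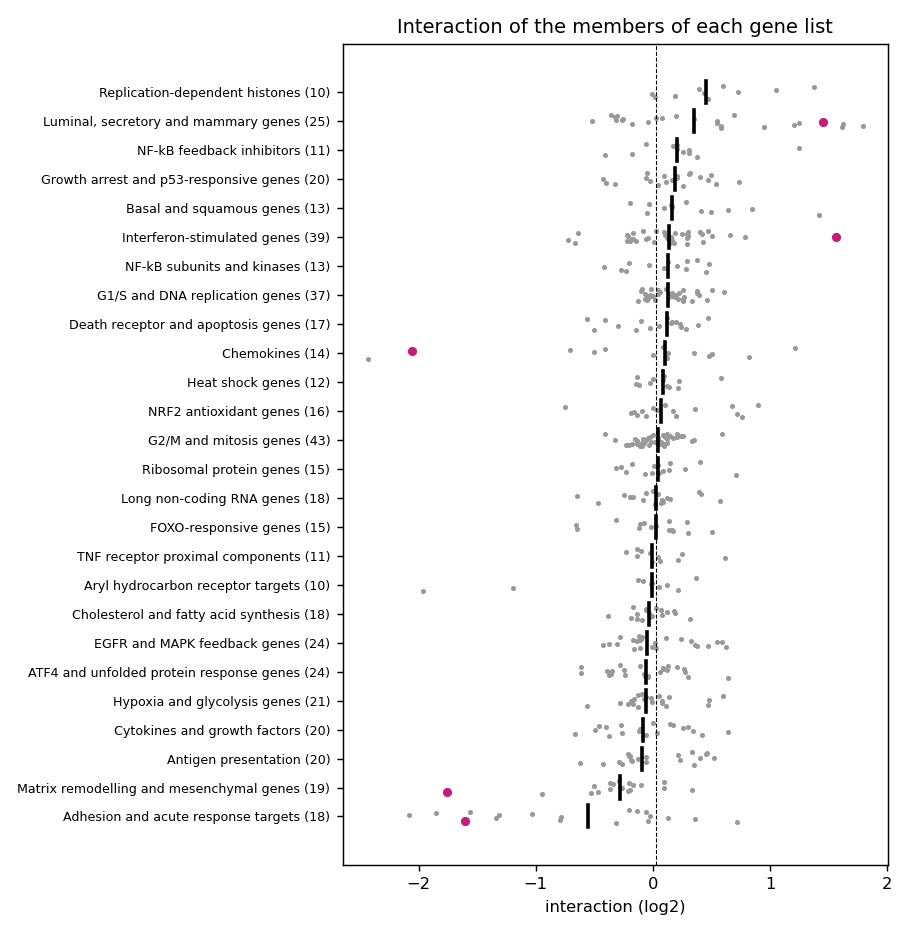
Interaction (log2) of every tested member of the gene lists, with a black bar at each list's median and a dashed line at the median of all tested genes, 0.02; filled points passed the test. Medians run from -0.55 for adhesion and acute response targets to 0.45 for replication-dependent histones, and 5 lists hold a called gene.

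Whether agents add depends on the scale, so the contrast was also taken on linear group means. All 28 named genes kept the sign of their interaction. CXCL8 had a linear interaction of -3.71 units against a rise from 9.14 to 227 units with TNF, and its log2 interaction of -0.51 thus lay close to additive on the linear scale. For C3 the linear interaction was -123 units, with group means of 28.1 in control cells, 171 with TNF, 20.1 with apigenin and 40.2 with both. SLC15A2 had 55.7, 24.6, 13.1 and 17.2 units in the same order, and a linear interaction of 35.2.

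Of the 1090 genes with an unadjusted p under 0.05, 806 had every group mean above the median and 284 were kept apart. Among all tested genes these classes held 13241 and 2591, so the share was higher among the genes kept apart. A gene kept apart was tested only where at least 2 arrays reached the median although a group mean lay below it. That filter favours genes that differ between arrays, so the higher share is not read as a result. Taking 0.5 log2 units to either side of 0 as a band, 186 of the genes with every group mean above the median had a TNF effect within the band without apigenin and above it with apigenin, as GBP2 did. In 174 higher and 135 lower genes the TNF effect stayed within the band in both arms. Another 94 went from below the band to within it, as STAC2 did, and 52 from above the band to within it. A further 130 went from within the band to below it, as PRM2 did, and 13, among them C3, lay above the band in both arms with a lower value in the presence of apigenin. These counts describe the shapes and carry no call. The division at the median was narrow: LINC01569 and PROKR1 lay just inside, with lowest group means of 2.53415 and 2.53427 and interactions of 0.10 and -0.08, and TNN and KLHL34 just outside, with 2.53354 and 2.53251 and interactions of -0.17 and -0.37.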

How the data were processed

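The authors deposited log2 values of 53617 probe sets on 11 arrays. Per the submitters' processing notes they came from Affymetrix Expression Console. Version, summarisation method and build: not given in the sources used here. That the logarithm is log2 was read from the range of the deposited values. Groups came from the sample titles. The values were quantile normalized over all probe sets. GEO's platform annotation listed 25713, of which 23871 had 1 gene symbol and 1842 several; 22569 matched a RefSeq gene of GRCh38.p14, used for names. Of several probe sets of a gene (632 genes) the highest mean was taken.

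In R 4.3.3 with limma 3.58.1, a linear model with a mean for each group took in all 11 arrays (lmFit, eBayes defaults, 7 residual degrees of freedom). Tests were two-sided, with p-values Benjamini-Hochberg adjusted over the 15832 tested genes. Folds are powers of 2 of log2 differences. The fit was tested on simulated data. Named were called genes, 16 genes of interest whatever their call, and the 8 of lowest p in each direction. CYLD, SAA1 and other list members outside this rule were named after their values were seen. The members, lists and named genes were chosen with earlier results of these data known. The number of arrays limits the precision. Alternatives changed the scaling, the filter, the probe set rule, the variance model and the arrays included. Promoters came from the RefSeq table of GRCh38.p14.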

Additional observations from a re-analysis of the deposited data

Results flagged for a closer look

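At 7 genes the TNF effect differed between cells with and without apigenin by the test of that difference itself, the interaction. In the order of their p-values the interactions were -2.05 for CXCL10, -1.76 for MMP13, 1.56 for SLC15A2, 1.45 for STAC2, -1.60 for C3, 1.57 for GBP2 and -1.65 for PRM2, all on the log2 scale. CXCL10 and MMP13 were kept apart for a group mean below the median. Groups of 2 or 3 arrays are too small for a check of single arrays that stand out.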

How the results depend on the processing

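In 20 alternatives, every interaction of the 28 named genes that could be tested kept its sign, while the calls were few and moved. On the deposited values 4 genes were called, 2 of them lower, and with array medians set equal 3 higher and 2 lower against 3 and 4 in the report; both scalings moved the median interaction of all tested genes from 0.02 to 0.23. CLCA2 was called under both. A stricter filter, which left CXCL10 and MMP13 untested by its construction, gave 2 lower calls, and array weights gave 2 lower. With a variance trend and robust estimation 14 were called, 7 higher and 7 lower. Leaving out 1 array gave 0 to 23 calls, 0 to 5 higher and 0 to 18 lower, and every fit but that without apigenin 2 gave 0; the cause was not tested. With the replicate number as a block 0 were called in either direction, with 1156 at an unadjusted p under 0.05. Deviations of same-numbered arrays correlated from -0.19 to 0.28, so the numbers are not shown to pair the arrays. The other comparisons moved too: over scalings, the block and left-out arrays the calls ran from 109 to 197 for TNF against control (186 in the report), 30 to 223 for both agents against apigenin (96), 217 to 729 for apigenin against control (595), 169 to 573 for both against TNF (510) and 447 to 1315 for both against control (1233). The highest adjusted p of the called genes over the alternatives ran from 0.106 for CXCL10 and STAC2 to 0.184 for C3.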

Other observations

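The fit was also run on all probe sets that pass the filter, with or without a gene symbol, an alternative chosen after seeing the data. Of 31618 probe sets tested, limma called 0, with 0 higher and 0 lower. The cause was not tested. Among the 14753 without a single gene symbol, 1164 had an unadjusted p under 0.05, or 7.89%, beside 6.88% of the genes. Of the 23 genes called without array apigenin 2, which were chosen after their values were seen, CYP1A1 and IL7R are described in the report; others were INHBA, STAT5A and IL22RA2.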
